A study of Rattus norvegicus with 7 samples.

Results

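Genes of cholesterol and fatty acid synthesis were followed in rat bone marrow mesenchymal stem cells (rMSCs) 4 h after seeding on a polymer film or on plastic. The set holds 31 of the 17147 gene symbols with values. They were chosen by symbol from knowledge of the pathways, with earlier results of these data known. The set comprises 18 enzymes of cholesterol synthesis, 7 genes of fatty acid synthesis, 5 genes of the SREBP switch that controls both, and 1 sterol carrier. All 31 had a value in every library, and 30 reached the limit for testing, a level of 1 FPKM in 3 or more film libraries, which left out only Elovl6.

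The study developed ISB-P, a polyurethane copolymer of polycaprolactone with propoxylated isosorbide, as a material for tissue regeneration. It reported more adherent cells on ISB-P than on polycaprolactone (PCL) itself for most cell types tested. RNA was sequenced 4 h after seeding to look for reasons for this difference. Primary rMSCs were obtained from the bone marrow of 1 male Sprague–Dawley rat aged 6 weeks, and 20000 cells were seeded per film of 16 mm diameter. All films had been sterilized with ethylene oxide gas, and the cells received no drug, transgene or differentiation medium, only alpha MEM with serum and antibiotics. There were 3 libraries on ISB-P, 3 on PCL and 1 on tissue culture plastic (TCP), all at 4 h.

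Levels are given in FPKM, fragments per kilobase of transcript scaled to all mapped fragments, which allows comparison between genes of different length. The read depth of the libraries is unknown, so precision rests on the 3 libraries of each film. Nothing in the labels says that these came from separate animals or cultures, and the methods describe 1 rat, so p-values measure the spread between these libraries only. Of 8 mesenchymal markers, Thy1 lay between 924.6 and 1209.8 FPKM over the 7 libraries, and Cd44, Vim and Col1a1 were at 274.9 FPKM or more, while Eng had 11.1 to 19.2 FPKM and Nt5e 8.13 to 12.9 FPKM. Col1a2 was listed at 0 in every library, which can be a failed estimate in a cell that makes type I collagen. Pdgfrb, another mesenchymal marker, lay between 154 and 177 FPKM on PCL and between 86.6 and 109.6 FPKM on ISB-P. In bulk RNA of this kind, fewer cells of a type and less RNA per cell cannot be told apart.

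Cells make cholesterol from acetyl-CoA through the mevalonate arm, which ends in farnesyl diphosphate, and then through squalene and a series of sterol intermediates. When the membrane of the endoplasmic reticulum holds little sterol, the escort protein SCAP carries the factors SREBP-1 and SREBP-2 (genes Srebf1 and Srebf2) to the Golgi, where they are cut and released to the nucleus. INSIG proteins hold SCAP back when sterol is plentiful. SREBP-2 is best known for the genes of cholesterol synthesis and uptake, and SREBP-1c for those of fatty acid synthesis.

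The stretches upstream of 6 members are shown because the results below turn on them. Insig1, Idi1, Msmo1 and Hmgcs1 had large differences between the films, whereas Tm7sf2 and Fads2 had the largest excess on TCP. Each is the RefSeq window of assembly GRCr8 from 250 bases before to 50 bases after the gene's start, written 5′ to 3′ along the gene. Capitals mark CCAAT, the box bound by NF-Y, or ATTGG, which is the same box on the other strand.
Insig1 (chr4:8057720-8058019, minus strand): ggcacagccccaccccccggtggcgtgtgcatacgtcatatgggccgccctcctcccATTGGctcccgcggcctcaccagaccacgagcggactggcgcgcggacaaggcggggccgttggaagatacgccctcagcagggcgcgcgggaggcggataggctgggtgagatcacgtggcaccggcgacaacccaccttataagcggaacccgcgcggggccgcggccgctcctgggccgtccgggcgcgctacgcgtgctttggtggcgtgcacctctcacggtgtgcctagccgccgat
Idi1 (chr17:66547475-66547774, minus strand): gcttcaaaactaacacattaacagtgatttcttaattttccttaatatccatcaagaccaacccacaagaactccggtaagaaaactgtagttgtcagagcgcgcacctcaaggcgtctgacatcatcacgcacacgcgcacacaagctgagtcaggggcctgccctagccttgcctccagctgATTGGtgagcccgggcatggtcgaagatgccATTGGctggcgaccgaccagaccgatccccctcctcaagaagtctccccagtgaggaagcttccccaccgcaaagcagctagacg
Msmo1 (chr16:29746863-29747162, plus strand): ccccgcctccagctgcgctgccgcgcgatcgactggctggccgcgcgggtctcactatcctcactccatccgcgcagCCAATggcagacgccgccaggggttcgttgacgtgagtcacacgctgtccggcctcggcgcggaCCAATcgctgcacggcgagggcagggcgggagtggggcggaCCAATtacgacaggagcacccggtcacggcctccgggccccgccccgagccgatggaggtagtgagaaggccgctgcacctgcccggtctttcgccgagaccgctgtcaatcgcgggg
Hmgcs1 (chr2:53382054-53382353, plus strand): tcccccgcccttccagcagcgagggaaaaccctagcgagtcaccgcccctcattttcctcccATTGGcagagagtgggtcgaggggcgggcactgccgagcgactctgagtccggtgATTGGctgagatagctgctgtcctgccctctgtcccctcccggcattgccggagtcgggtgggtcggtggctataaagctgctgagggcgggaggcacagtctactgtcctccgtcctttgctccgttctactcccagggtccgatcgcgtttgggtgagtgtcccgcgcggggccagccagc
Tm7sf2 (chr1:212789492-212789791, minus strand): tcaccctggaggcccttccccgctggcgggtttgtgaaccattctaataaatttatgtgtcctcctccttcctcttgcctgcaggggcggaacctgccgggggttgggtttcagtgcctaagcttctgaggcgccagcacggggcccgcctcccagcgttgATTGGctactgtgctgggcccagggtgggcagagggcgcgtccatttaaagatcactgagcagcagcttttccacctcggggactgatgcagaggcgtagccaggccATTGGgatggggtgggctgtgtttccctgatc
Fads2 (chr1:216171984-216172283, minus strand): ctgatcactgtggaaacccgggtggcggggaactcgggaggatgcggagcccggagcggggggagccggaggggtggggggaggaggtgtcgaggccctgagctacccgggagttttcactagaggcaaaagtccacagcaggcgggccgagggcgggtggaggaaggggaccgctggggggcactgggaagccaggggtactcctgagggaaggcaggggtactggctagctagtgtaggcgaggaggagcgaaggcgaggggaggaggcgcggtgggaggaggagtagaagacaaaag

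A window was found for 24 of the 31 members, and none was printed for Pmvk, Fdft1, Sqle, Stard4, Acaca, Fasn and Elovl6. CCAAT occurred on either strand in 18 of the 24 (75.0%), beside 37.5% of all 33469 windows and 37.7% of the 7566 windows of tested genes. By list, it occurred in 12 of 15 cholesterol enzymes, 4 of 5 SREBP-switch genes and 2 of 4 fatty acid genes. The stretch of Msmo1 held 3 copies, those of Idi1, Hmgcs1 and Tm7sf2 held 2 each, that of Insig1 held 1 and that of Fads2 held 0. The GC box GGGCGG occurred on either strand in 20 of the 24 (83.3%), beside 64.8% of the windows of tested genes. The letters TCACNCCAC, a core of the sterol regulatory element, occurred in 0 of the 24 windows on either strand, beside 1.22% of the windows of tested genes. The 3 motifs were counted separately, and a match of letters is a description of the window only.

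The first comparison was between the films. On ISB-P the cholesterol enzymes were mostly higher than on PCL, with Idi1 at 2.70 times, Msmo1 at 2.07 times and Sqle at 1.80 times the PCL mean. The feedback gene Insig1, which the same pathway induces, stood at 2.59 times. Of the fatty acid genes, Scd stood at 1.29 times, the other 5 that were tested lay between 0.884 and 1.11 times, and Elovl6, below the limit for testing, stood at 0.663 times. The plot of levels by library shows all values.

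**Figure D1:**
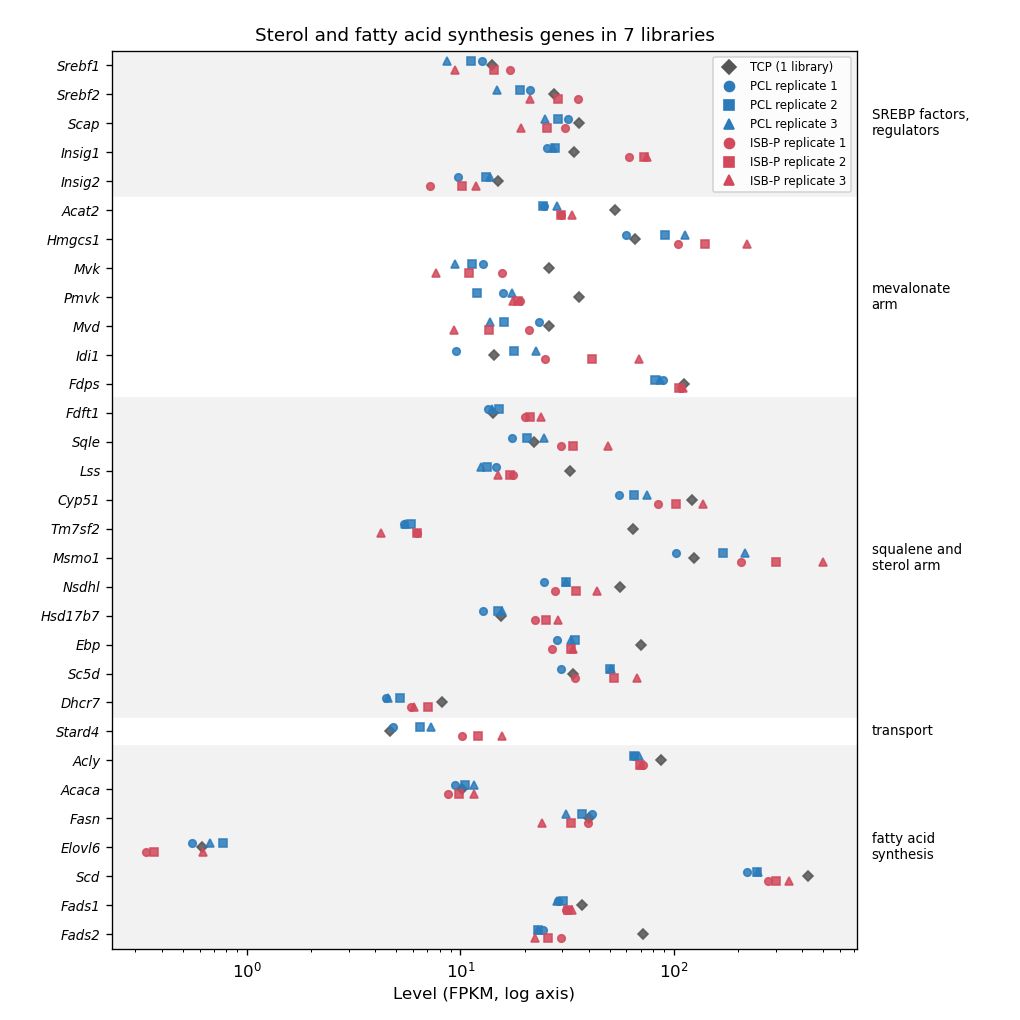
Level of each of the 31 genes in every library (FPKM, log axis), with TCP as a diamond, PCL in blue and ISB-P in red, and the marker shape giving the replicate number. Insig1, Idi1, Sqle, Hsd17b7 and Stard4 have all 3 ISB-P points to the right of all 3 PCL points, while Tm7sf2 has its TCP point at 64.1 FPKM, far to the right of both films.

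Differences were tested with limma on log2(FPKM + 1) and adjusted by Benjamini-Hochberg over the 9467 genes tested. Because of the added 1, fold changes of genes with low levels come out too small on this scale. Of the 30 members tested, 1 was higher on ISB-P at an adjusted p under 0.05 and 0 were lower, beside 1.10% of all tested genes called higher and 0.623% called lower. At an unadjusted p under 0.05, 13 members were higher and 0 lower, beside 5.51% and 6.58% of all tested genes. Libraries that share a replicate number deviated together on both films, as given under the processing, so the comparison was also fitted within replicate pairs (the replicate block). That fit called 16 members higher and 2 lower and left 12 uncalled, but it also called 13.0% of all tested genes higher and 11.4% lower. In 12 of the members called higher, and in both called lower, the call held in all 4 fits with the block, which differed in how the libraries were scaled. Scaling to a common total moved the median of all tested genes from 0.02 to -0.09 on the log2 scale and changed the split of calls with the block to 711 genes higher and 2111 lower, and among members to 12 higher and 4 lower. Without the block the same scaling gave 70 and 70 genes, in place of 104 and 59.

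All 3 ISB-P libraries lay above all 3 PCL libraries for 16 members, beside 8.17% of all tested genes, and below them for 0 members, beside 9.54%. Within the 3 replicate pairs, 21 members were higher on ISB-P in every pair, 4 were lower in every pair and 5 were mixed, while 30.5% of all tested genes were higher and 27.7% lower in every pair. The plot of fold changes gives each member's difference with its interval in both fits.

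**Figure D2:**
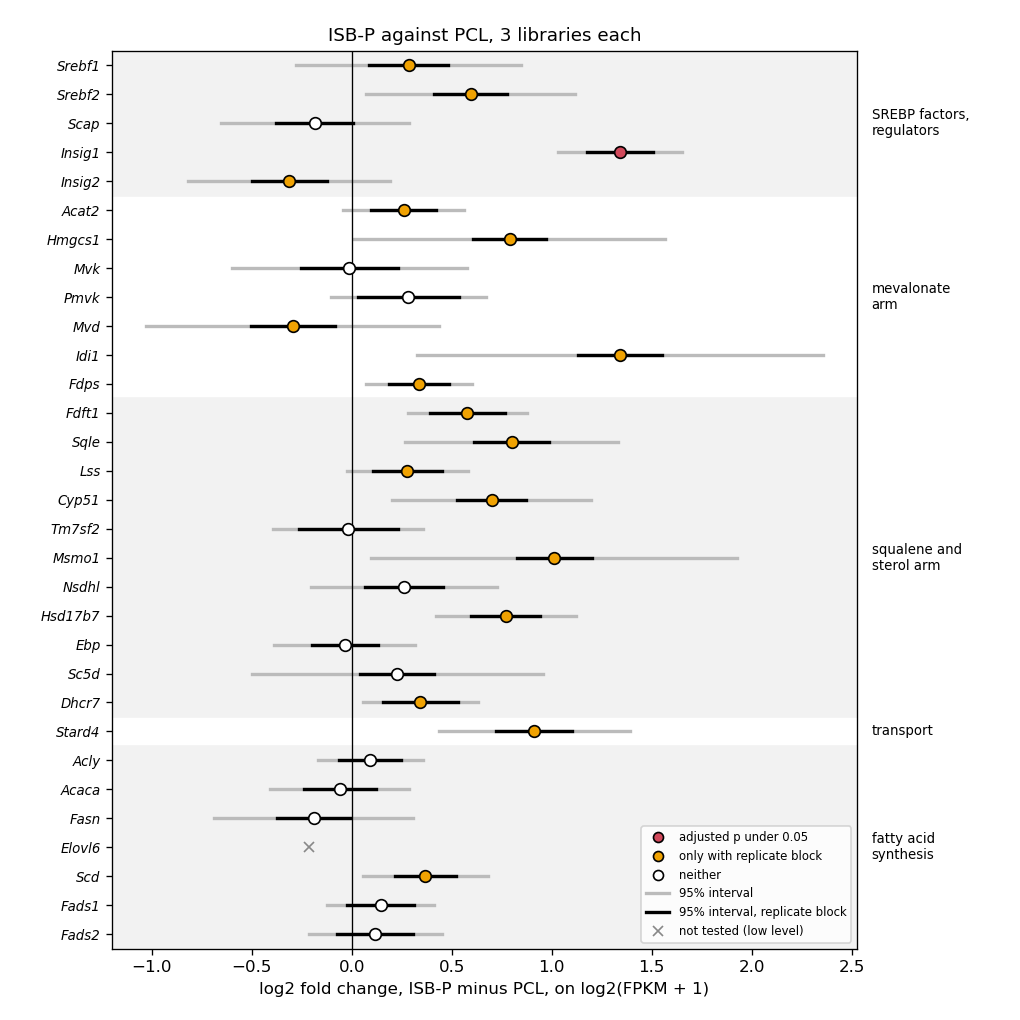
The log2 fold change of each member between ISB-P and PCL on the log2(FPKM + 1) scale, with 95% intervals from limma without (grey) and with (black) the replicate block. Insig1 alone is filled red (called without the block), 17 members are orange (called only with it), and the black intervals are narrower than the grey ones throughout.

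Among the SREBP-switch genes, Insig1 encodes a protein that retains SCAP in the endoplasmic reticulum and is itself an SREBP target. Its level was 25.3, 27.9 and 27.3 FPKM in PCL replicates 1 to 3, and 61.8, 72.2 and 74.9 FPKM in ISB-P replicates 1 to 3. The groups were far apart, and the libraries within each film were close together. Its log2 fold change was 1.34 ± 0.13 (SE, 3 libraries per film), with a limma adjusted p of 0.00651 without the block and 8.74e-06 with it. When PCL replicate 2 or ISB-P replicate 2 was left out, the limma adjusted p of Insig1 rose to 0.0725 and 0.0798 and 0 members were called. Its log2 fold change was then 1.37 and 1.31. Those fits called 14 and 21 of all tested genes higher and 6 and 6 lower, in place of 104 and 59. Over all alternatives without the block the limma adjusted p of Insig1 lay between 0.00489 and 0.0798.

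Srebf2, the gene of SREBP-2, had 21.1, 19.0 and 14.9 FPKM on PCL and 35.5, 28.7 and 21.2 FPKM on ISB-P. The lowest ISB-P library was just above the highest PCL library, and each pair was 1.42 to 1.68 times higher on ISB-P. Its log2 fold change was 0.59 ± 0.22 (SE), with a limma adjusted p of 0.333, and 0.00136 with the block. Srebf1 overlapped between the films, at 12.6, 11.2 and 8.65 FPKM on PCL and 17.1, 14.4 and 9.46 FPKM on ISB-P. Its limma adjusted p was 0.812 without the block and 0.0445 with it, and between 0.0220 and 0.157 over the 4 fits with the block. Insig2, a relative of Insig1 that also binds SCAP, went the other way, with 9.73, 13.2 and 13.7 FPKM on PCL against 7.17, 10.1 and 11.9 FPKM on ISB-P. The groups overlapped, but ISB-P was lower in each pair, with a log2 fold change of -0.31 and a limma adjusted p of 0.721, and 0.0257 with the block. Scap, which encodes the escort protein itself, had a mean of 28.4 ± 3.46 FPKM on PCL and 25.2 ± 5.89 FPKM on ISB-P (SD, n = 3) and was not called in either fit.

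In the mevalonate arm, 5 of 7 enzymes had a higher mean of log2(FPKM + 1) on ISB-P, beside 5005 of all 9467 tested genes. None of the 7 was called without the block. With it 4 were called higher and 1 lower, beside 13.0% and 11.4% of all tested genes. Idi1, the isomerase that makes dimethylallyl diphosphate, had 9.52, 17.9 and 22.5 FPKM on PCL and 24.8, 41.4 and 68.8 FPKM on ISB-P. Every ISB-P library was above every PCL library, but the libraries of 1 film differed among themselves by up to 2.37 times on PCL and 2.77 times on ISB-P. The spread was shared between films, and within pairs the ratio of ISB-P to PCL was 2.61, 2.31 and 3.05. Accordingly its log2 fold change of 1.34 ± 0.43 (SE) had a limma adjusted p of 0.244, and 3.71e-05 with the block. Hmgcs1, the synthase that makes HMG-CoA, showed the same shape, with 59.9, 90.9 and 112 FPKM on PCL and 105, 139 and 219.6 FPKM on ISB-P. Here the highest PCL library exceeded the lowest ISB-P library, while the pairs were 1.75, 1.53 and 1.96 times higher on ISB-P. The limma adjusted p of Hmgcs1 was 0.406, and 3.10e-04 with the block.

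Fdps, which makes farnesyl diphosphate, was tight on both films, at 88.9, 81.4 and 86.5 FPKM on PCL and 108, 106 and 111 FPKM on ISB-P. This was 1.27 times higher without overlap, with a limma adjusted p of 0.263, and 0.00781 with the block. Acat2, the thiolase that opens the pathway, had 24.6, 24.3 and 28.2 FPKM on PCL and 29.7, 29.6 and 33.5 FPKM on ISB-P, and its adjusted p with the block ran from 0.0302 to 0.139 over the 4 fits. Mvk, mevalonate kinase, averaged 11.2 ± 1.68 FPKM on PCL and 11.4 ± 3.97 FPKM on ISB-P (SD, n = 3), a log2 difference of -0.01 with a 95% interval from -0.60 to 0.58. Pmvk, phosphomevalonate kinase, had 15.9, 11.9 and 17.5 FPKM on PCL and 19.0, 18.6 and 17.6 FPKM on ISB-P. It was higher in every pair and just short of overlap, with a log2 fold change of 0.28, and was called in neither fit. Mvd, the decarboxylase that follows, was lower on ISB-P in each pair, at 20.9, 13.6 and 9.33 FPKM against 23.3, 16.0 and 13.8 FPKM on PCL. Its groups overlapped, and its limma adjusted p was 0.876 without the block and 0.0471 with it.

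In the squalene and sterol arm, 9 of 11 enzymes had a higher mean of log2(FPKM + 1) on ISB-P, beside 5005 of all 9467 tested genes. None of the 11 was called without the block. With it 7 were called higher and 0 lower, beside 13.0% and 11.4% of all tested genes. Msmo1, a methylsterol oxidase, was the most abundant cholesterol enzyme, with 102, 170.1 and 215 FPKM on PCL and 206, 300.5 and 499.7 FPKM on ISB-P. The pairs were 2.02, 1.77 and 2.33 times higher on ISB-P, although PCL replicate 3 was above ISB-P replicate 1. Its log2 fold change was 1.01 ± 0.38 (SE), with a limma adjusted p of 0.347, and 9.73e-05 with the block. Sqle, squalene epoxidase and a slow step of the pathway, had 17.4, 20.5 and 24.6 FPKM on PCL and 29.5, 33.9 and 49.2 FPKM on ISB-P. All ISB-P libraries were above all PCL libraries, and its limma adjusted p was 0.178, and 3.23e-04 with the block. Cyp51, lanosterol demethylase, had 55.6, 64.8 and 75.1 FPKM on PCL and 84.5, 102 and 137 FPKM on ISB-P, again without overlap, at a limma adjusted p of 0.207, and 4.41e-04 with the block.

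Hsd17b7, the ketosteroid reductase of this arm, also separated the films, though with a smaller gap than Insig1. It had 12.8, 14.9 and 15.7 FPKM on PCL and 22.4, 25.1 and 28.7 FPKM on ISB-P. Its log2 fold change of 0.77 ± 0.15 (SE) had a limma adjusted p of 0.0642, and 2.51e-04 with the block; over the alternatives without the block it lay between 0.0398 and 0.310, under 0.05 with upper quartile scaling and quantile normalization. Fdft1, squalene synthase, had 13.4, 15.2 and 14.0 FPKM on PCL and 20.1, 21.2 and 23.8 FPKM on ISB-P, at a limma adjusted p of 0.0931, and 0.00183 with the block. Dhcr7, the reductase of the last step, had a low level, averaging 4.77 ± 0.403 FPKM on PCL and 6.33 ± 0.611 FPKM on ISB-P (SD, n = 3) without overlap. Lss, lanosterol synthase, averaged 13.5 ± 1.05 and 16.6 ± 1.41 FPKM, also without overlap. Dhcr7 and Lss were called with the block but not when a common total was added to it, where the highest adjusted p was 0.0534 and 0.125.

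The other 4 enzymes of the sterol arm were called in neither fit. Nsdhl, a sterol dehydrogenase, averaged 29.1 ± 3.84 FPKM on PCL and 35.4 ± 7.84 FPKM on ISB-P, and Sc5d, a desaturase, 43.5 ± 12.1 and 51.4 ± 16.5 FPKM (SD, n = 3). Both were higher on ISB-P in all 3 pairs. Ebp, the sterol isomerase, averaged 32.0 ± 3.15 and 31.2 ± 3.78 FPKM, with a 95% interval of the log2 difference from -0.39 to 0.31. Tm7sf2, a sterol reductase, averaged 5.60 ± 0.251 and 5.59 ± 1.16 FPKM, with an interval from -0.39 to 0.36.

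Stard4, a carrier that moves cholesterol between membranes, belonged with the larger differences. It had 4.85, 6.47 and 7.30 FPKM on PCL and 10.1, 12.1 and 15.6 FPKM on ISB-P, so that the lowest ISB-P library exceeded the highest PCL library. Its log2 fold change was 0.91 ± 0.20 (SE), with a limma adjusted p of 0.0961, and 1.73e-04 with the block.

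Among the 6 fatty acid genes tested, 0 were called without the block. With it 1 was called higher and 0 lower, beside 13.0% and 11.4% of all tested genes. That gene was Scd, a stearoyl-CoA desaturase and the most abundant fatty acid gene, with 219, 246 and 249 FPKM on PCL and 277, 301 and 346 FPKM on ISB-P. The films did not overlap, and its log2 fold change of 0.37 ± 0.13 (SE) had a limma adjusted p of 0.310, and 0.00566 with the block. Rodents carry close copies of this desaturase, and how reads were shared between them is uncertain. Acly, which makes cytosolic acetyl-CoA from citrate, was 65.1, 65.1 and 68.4 FPKM on PCL and 72.0, 69.8 and 70.1 FPKM on ISB-P. These groups did not overlap, but the log2 fold change was 0.09 with a 95% interval from -0.17 to 0.35. Fads1, a desaturase of polyunsaturated fatty acids, also had all its ISB-P libraries above PCL, averaging 29.1 ± 0.985 and 32.3 ± 1.00 FPKM (SD, n = 3), at a limma adjusted p of 0.783 without the block and 0.183 with it.

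The 2 enzymes that build the fatty acid chain had a lower mean on ISB-P than on PCL. Acaca, acetyl-CoA carboxylase, averaged 10.5 ± 1.06 FPKM on PCL and 10.1 ± 1.44 FPKM on ISB-P, with a 95% interval of the log2 difference from -0.41 to 0.29. Fasn, fatty acid synthase, averaged 36.5 ± 5.14 and 32.3 ± 7.78 FPKM (SD, n = 3) and was lower on ISB-P in each pair, with a limma adjusted p of 0.890, and 0.118 with the block. With the block and a common total together, Fasn and Scap were called lower on ISB-P, at limma adjusted p of 0.0260 and 0.0318. Fads2, a partner of Fads1, averaged 23.6 ± 0.780 and 25.8 ± 3.63 FPKM and was called in neither fit. Elovl6, an elongase, stayed between 0.337 and 0.775 FPKM on the films and was not tested.

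Set side by side, the median log2 fold change was 0.31 over the 18 cholesterol enzymes and 0.10 over the 6 tested fatty acid genes, beside 0.02 over all tested genes. The difference between the list medians was 0.21. With a common total both medians were lower, at 0.20 for cholesterol and -0.01 for fatty acid genes, beside the all-gene median of -0.09. Within the replicate pairs the cholesterol median was 0.27, 0.37 and 0.38, and the fatty acid median was 0.13, 0.08 and 0.00365. Of the 18 cholesterol enzymes, 14 had a higher mean of log2(FPKM + 1) on ISB-P, all of them in every pair, and 10 did not overlap between films. Of the 6 tested fatty acid genes, 4 had a higher mean on that scale, 3 were higher in every pair and 3 did not overlap. The lists were thus close in the share without overlap. Among all 9467 tested genes, 5005 had a higher mean on ISB-P, 30.5% were higher in every pair and 8.17% were higher without overlap. The difference between the lists was not tested, since the members were chosen with results of these data known.

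The mean of log2(FPKM + 1) over the cholesterol list was 4.49, 4.68 and 4.75 on PCL and 4.92, 5.07 and 5.20 on ISB-P. Over the 7 fatty acid genes it was 4.69, 4.74 and 4.71 on PCL and 4.76, 4.73 and 4.75 on ISB-P. The ISB-P libraries thus all exceeded the PCL libraries for the cholesterol list, while the fatty acid list had its PCL and ISB-P libraries interleaved within a span of less than 0.1. On TCP the means were 5.28 and 5.17, above every film library for both lists. For the cholesterol list this rested on Tm7sf2, at 64.1 FPKM on TCP against 4.24 to 6.26 FPKM on the films. Without that gene the cholesterol mean on TCP would not exceed that of ISB-P replicate 3. Of the 18 cholesterol enzymes, 10 lay above every film library on TCP and 8 inside the film range. Of all tested genes, 25.4% lay above every film library.

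**Figure D3:**
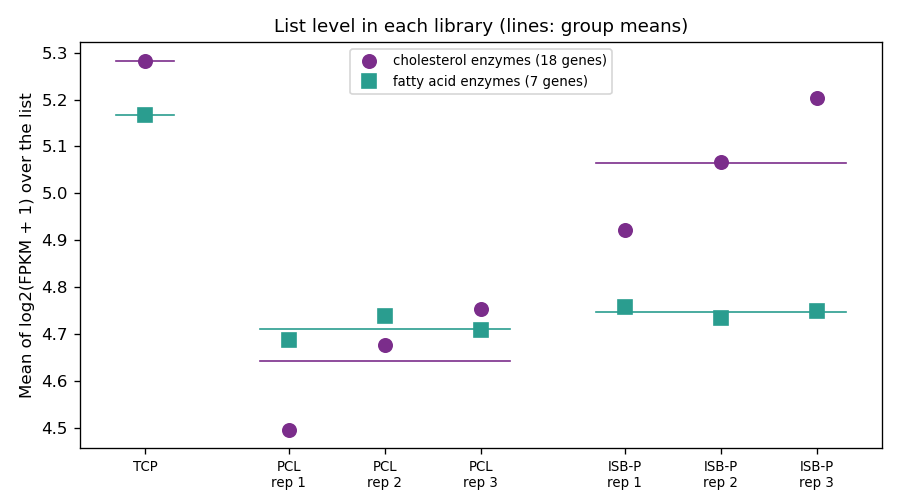
Mean of log2(FPKM + 1) over the 18 cholesterol enzymes (circles) and the 7 fatty acid genes (squares) in each library, with lines for group means. The cholesterol list sits between 4.49 and 4.75 on PCL and between 4.92 and 5.20 on ISB-P, the fatty acid list stays between 4.69 and 4.76 on both films, and TCP is at 5.28 and 5.17.

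The members also differed in how far libraries of 1 film spread. Hmgcs1, Idi1, Msmo1 and Sc5d were 1.72 to 2.77 times higher in replicate 3 than in replicate 1 on both films. Srebf1, Srebf2, Scap, Mvk, Mvd and Fasn were lower in replicate 3 than in replicate 1 on both films, at 0.447 to 0.782 times. Fdps, Acly, Acat2 and Fads1 varied by at most 1.16 times within a film. Among the members, the deviations from the film mean correlated between PCL and ISB-P libraries of the same number at r = 0.968, 0.266 and 0.944 for replicates 1, 2 and 3, which is a description over 30 genes that share these libraries.

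Of the other genes of the pathway, 13 further sterol genes are described here. The list was shortened after its values were seen, because some items are not reported, so no median or share is given for it. Of these 13, none was called without the block. Those called lower on ISB-P with it were Rnf145, a sterol-regulated ubiquitin ligase, at 30.6 ± 3.86 FPKM on PCL and 17.0 ± 1.81 FPKM on ISB-P, and Lipa, the lysosomal lipase that frees cholesterol from its esters, at 38.6 ± 9.65 and 30.97 ± 9.62 FPKM (SD, n = 3). The limma adjusted p of Rnf145 was 0.0575, and 1.62e-04 with the block, and its films did not overlap. That of Lipa was 0.818, and 0.0172 with the block, and its films overlapped.

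A separate list of 7 genes held LXR, the receptor that senses oxysterols (genes Nr1h2 and Nr1h3), and its targets. Abcg1, a sterol exporter, had 0.600, 0.542 and 0.542 FPKM on PCL and 1.30, 1.33 and 1.05 FPKM on ISB-P. It reached the limit for testing only through its ISB-P libraries, so its difference is given as values only. Of the 5 others tested, 0 were called without the block and 3 were higher with it (Abca1, Mylip and Lpcat3), around a median log2 fold change of 0.38. Nr1h2 and Nr1h3 were called in neither fit. Of 16 tested genes of other lipid synthesis steps, 0 were called without the block, and 5 were higher (Me1, Acsl1, Acsl3, Acsl4 and Dgat2) and 1 lower (Gpam) with it, around a median of 0.09. Of 10 tested genes of fatty acid oxidation, 0 were called without the block and 2 were higher with it (Cpt1a and Acadl), around a median of 0.13. These calls stand beside the 13.0% and 11.4% of all tested genes given above.

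The second comparison set TCP against the films. TCP had 1 library, so its differences have no replicate check and no p-value, and a member was counted only where TCP differed by over 2-fold from the mean of the films on the log2(FPKM + 1) scale and lay outside all 6 film libraries. By this limit 6 of 30 members were higher on TCP and 0 lower, beside 3.46% and 6.05% of all tested genes. The 6 were not the genes that differed most between the films: they were Tm7sf2, Fads2, Mvk, Ebp, Pmvk and Lss, and of these Lss alone was called between the films, with the block. The plot of TCP ratios shows them.

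**Figure D4:**
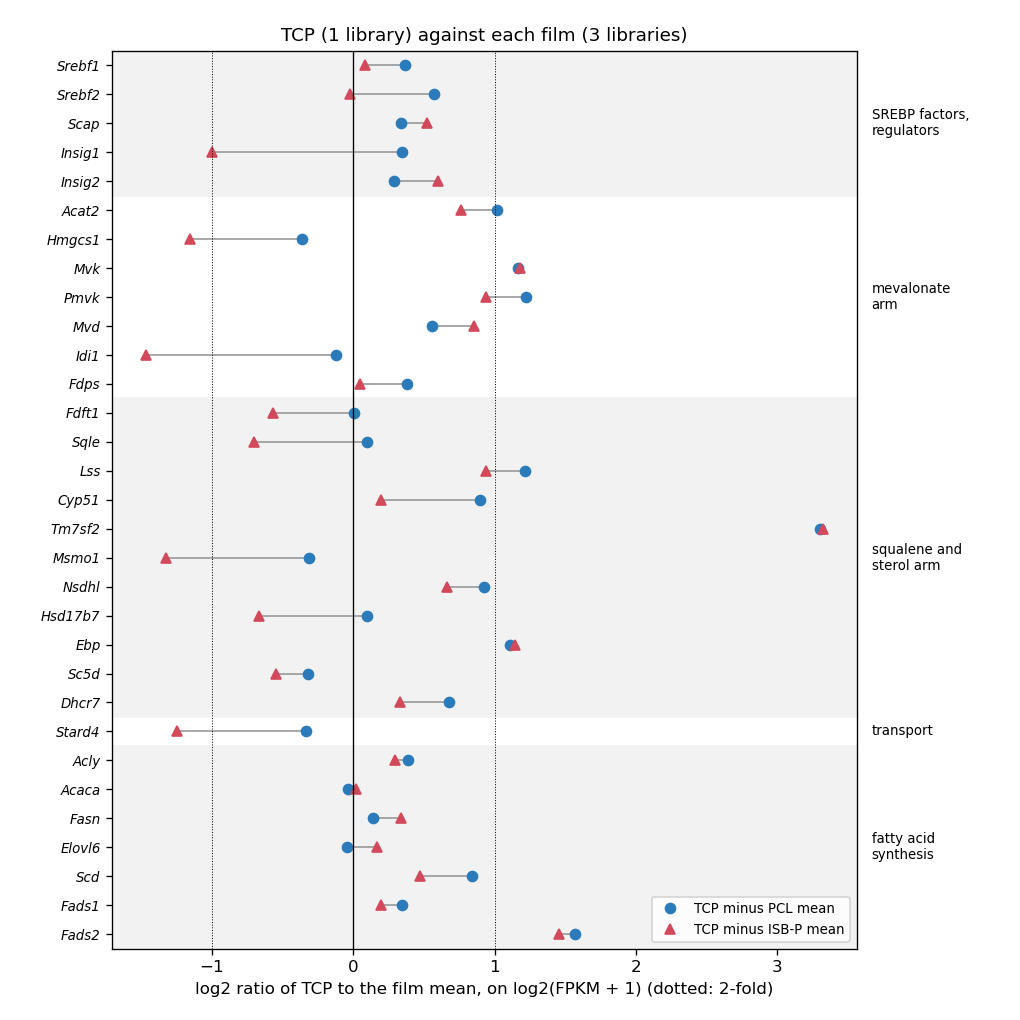
The log2 ratio of the TCP library to the mean of PCL (blue circles) and of ISB-P (red triangles) for each member, on log2(FPKM + 1), with dotted lines at 2-fold. Tm7sf2 lies near 3.3 against both films, Mvk, Ebp and Fads2 lie beyond 1 against both, and Hmgcs1, Idi1, Msmo1 and Stard4 lie below -1 against ISB-P only.

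Tm7sf2 stood apart, at 64.1 FPKM on TCP against 4.24 to 6.26 FPKM over the films, which is 11.5 times the film mean. Fads2, the desaturase whose stretch is shown above, had 72.1 FPKM on TCP against 22.3 to 29.6 FPKM on the films. Both were well outside the films, whose libraries were close together. Mvk and Pmvk, consecutive kinases of the mevalonate arm, had 26.1 and 36.1 FPKM on TCP, with the films at 7.70 to 15.6 FPKM and 11.9 to 19.0 FPKM. Ebp had 69.8 FPKM against 26.9 to 34.6 FPKM, and Lss had 32.5 FPKM against 12.6 to 17.7 FPKM. These 4 genes were 2.16 to 2.32 times the film mean on TCP.

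A further 10 members, making 16 of 30 in all, lay above every film library on TCP without passing 2-fold, among them Acat2 at 53.0 FPKM against 24.3 to 33.5 FPKM and Scd at 426 FPKM against 219 to 346 FPKM. Of all tested genes, 25.4% lay above every film library on TCP and 29.7% below. Stard4 was the only member below every film library, at 4.66 FPKM on TCP against 4.85 to 15.6 FPKM. Of the other genes with large differences between the films, several were at PCL-like levels on TCP or between the films, but not all. Insig1 had 34.2 FPKM on TCP, above all PCL and below all ISB-P libraries. Idi1 (14.3 FPKM), Hmgcs1 (65.7 FPKM) and Msmo1 (124 FPKM) lay inside the range of the PCL libraries. Cyp51 (121 FPKM) and Srebf2 (27.5 FPKM) lay above all PCL libraries and inside the range of the ISB-P libraries. Against ISB-P alone, 4 members were over 2-fold lower on TCP (Hmgcs1, Idi1, Msmo1 and Stard4) and 4 over 2-fold higher (Mvk, Tm7sf2, Ebp and Fads2). Without PCL replicate 1, Idi1 and Msmo1 became over 2-fold lower than the remaining films and below all of them.

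The median log2 ratio of TCP to the films was 0.52 for the cholesterol enzymes and 0.31 for the fatty acid genes, beside -0.06 for all tested genes. Against ISB-P alone the cholesterol median was 0.26, and against PCL alone 0.62. Other scalings moved the all-gene median to as much as 0.05, with a common total. The further lists gave 5 genes past the limit, beside 3.46% of all tested genes higher and 6.05% lower. Higher were 1 of 6 tested genes of the LXR list and 2 of 16 of other lipid synthesis. Lower were 1 of the same 16 and 1 of 10 of fatty acid oxidation. Acss2, which makes acetyl-CoA from acetate, had 30.4 FPKM on TCP against 6.50 to 7.27 FPKM on the films, Mylip, a ubiquitin ligase induced by LXR, had 15.9 against 4.01 to 6.93 FPKM, and Tecr, a reductase of fatty acid elongation, had 145 against 64.7 to 78.6 FPKM, at a log2 ratio of 1.00 that just passed the limit and fell to 0.97 in the lowest alternative. Lower on TCP were Cpt1a, the gate of fatty acid oxidation, with 3.78 against 15.8 to 20.6 FPKM, and Acsl4, an acyl-CoA synthetase, with 23.2 against 36.4 to 119 FPKM.

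Cell type markers also differed in the TCP library. The summed level of the mesenchymal markers was 17467 FPKM on TCP against 9060.1 to 12907 FPKM on the films, with Col1a1 at 10406 against 3868 to 6058 FPKM. Only 3 of the 8 markers lay above every film library on TCP (Thy1, Eng and Col1a1). Vim, Cd44, Nt5e and Pdgfrb lay inside the film range, so the sum mostly follows Col1a1. Of 6 blood cell markers measured, 4 were above every film library on TCP (Ptprc, Cd68, Csf1r and Cd14), and their summed level was 54.1 FPKM on TCP against 17.2 to 24.9 FPKM on the films, with Cd3e listed at 0 in all libraries. Of 4 adipocyte markers, Plin1 and Adipoq were above every film library, with a summed level of 4.83 FPKM on TCP against 0.457 to 0.963 FPKM. The 4 endothelial markers summed to at most 0.565 FPKM in any library. Between the films, the blood cell sum was 21.8 to 24.9 FPKM on PCL and 17.2 to 20.4 FPKM on ISB-P, the adipocyte sum was 0.621 to 0.963 and 0.457 to 0.852 FPKM, and the endothelial sum was 0.117 to 0.237 and 0.368 to 0.565 FPKM, the last without overlap and mostly from Kdr. The part of these cells in the levels of the synthesis genes was not tested.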

How the data were processed

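rMSC RNA was profiled in 7 libraries (3 ISB-P, 3 PCL, 1 TCP; groups and replicate numbers from the labels). The authors prepared TruSeq stranded mRNA libraries, and deposited 1 table per library of values for 17147 symbols, read here as FPKM because the submitters' processing notes name Cuffdiff 2.2.1 (with TopHat2 2.0.13, cutadapt 1.18, bcl2fastq 2.20.0.422 and rn5) and the values are not whole numbers. Their sums were 539393 to 660124 and are not depths. The experiment is described with n = 3, and further TCP libraries were not analysed here.

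Genes with at least 1 FPKM in 3 of the 6 film libraries (9467) were tested with limma 3.58.1 in R 4.3.3 (lmFit, eBayes with trend, two-sided) on log2(FPKM + 1), with Benjamini-Hochberg adjustment. The replicate block is the same fit with the replicate number as a term. The numbers come from the labels, which do not say what a number marks. Over tested genes, deviations from the film means correlated at r = 0.887, 0.431 and 0.867 for the same number, so the libraries were treated as paired. The mean for different numbers was -0.356, which follows from the positive values because deviations from a film mean cancel out. The pairing was thus inferred from the same data that the block was fitted to. On simulated data of 9467 genes, the fit recovered 57% of 100 genes changed by 1 on the log2 scale and 94% of 100 changed by 2, with 0 false calls. The block recovered 87% and 98%, with 2 false calls. Both simulated films were given each gene's replicate shifts from these data, so better recovery with the block was built in. No shift of a whole library was simulated, so the false calls in the real fits are not known from this.

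Members and lists were chosen with earlier results of these data known. All members are named; of the other lists, those called without the block or past the TCP limit, unless stated. Upstream windows are RefSeq GRCr8, another build than rn5, so no coordinates were joined. Other scalings, pseudocounts, filters, left-out libraries and the study's thresholds (fold over 2, p under 0.1, at least 16 FPKM) were alternatives; scalings with the block were added after the data were seen. Some items of the further sterol list are not reported here.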

Additional observations from a re-analysis of the deposited data

How the results depend on the processing

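Of the members' results, those without a remark kept their direction and side of the threshold. Without the replicate block 1 member was called higher on ISB-P and 0 lower. Upper quartile scaling and quantile normalization each called 2 higher (Insig1 and Hsd17b7), and leaving out 1 library gave 0 to 1. The study's thresholds, as applied here to limma and FPKM values, passed 3 (Insig1, Idi1 and Msmo1). The block called 16 higher and 2 lower, 15 and 2 with upper quartile scaling, 15 and 2 with quantile normalization, and 12 and 4 with a common total. The cholesterol median of 0.31 became 0.197 with a common total, with or without the block, and 0.28 to 0.40 with 1 library left out. The fatty acid median of 0.10 became 0.0261 with quantile normalization and -0.00898 with a common total, in both fits, and 0.0531 to 0.109 with 1 library left out (0.0531 without ISB-P replicate 1). The difference of the medians lay between 0.17 and 0.35 with 1 library left out. On TCP the fatty acid median of 0.31 became 0.41, 0.47 and 0.43 with upper quartile scaling, quantile normalization and a common total, and 0.36 against PCL alone, and the cholesterol median became 0.264 against ISB-P alone. Against ISB-P alone 4 members were lower on TCP, and 0 to 2 with 1 library left out (2 without PCL replicate 1), while those higher were 5 to 6; 7, with Acat2 added, with quantile normalization, a common total or against PCL alone, 4 against ISB-P alone (without Pmvk and Lss), and 5 against the replicate 1 films (Nsdhl in, Mvk and Lss out). Of the further lists, Acsl1, Acsl4, Cpt1a and Acadl lost their call with the block under a common total, Acadl also with quantile normalization, and Abcg1 fell under the limit for testing in 2 of these 4 fits. On TCP, Tecr passed 2-fold neither against PCL alone, nor against the replicate 1 films, nor without replicate 3 of either film, and Acsl4 did not against the replicate 1 films. Uncalled members near 0 changed sign: with quantile normalization, in both fits, Mvk (0.0269), Tm7sf2 (0.0445) and Acly (-0.0283), Acly also with a common total, in both fits (-0.0235), and with 1 library left out Mvk (-0.25 to 0.22), Tm7sf2 (-0.10 to 0.14), Ebp (-0.12 to 0.0642), Acaca (-0.16 to 0.0292) and Sc5d (-0.0247 to 0.49). The cause was not tested. Depth is unknown and the replicates limit the precision: without the block, 29 of 30 tested members did not pass the threshold, which does not show that they were alike.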
